A study of Mus musculus with 11 samples.

Results

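Lymphocyte genes were followed in epididymal white adipose tissue (eWAT) of mice with and without the paternally expressed gene Mest. The members were a list of 45 genes of T cells, B cells, natural killer (NK) cells, regulatory T cells and type 2 innate lymphoid cells, matched by gene symbol to the table of each mouse. Of these, 40 were present among the 15453 genes of the tables, and the other 5 (Pax5, Blk, Nkg7, Themis and Cd27) were not analysed here. The list was set by gene symbol and not by a measured value, but earlier results of these data were known when it was chosen. The tissue came from 6 wildtype (WT) and 5 Mest+/- paternal knockout (pKO) male mice of strain C57BL/6, all 16 weeks old. All were on a high fat diet from 8 weeks of age. In pKO mice the paternal copy of Mest lacked an exon in every tissue, after a germline deletion with an Ella-cre transgene, so no effect can be assigned to 1 cell type. WT and pKO mice came from crosses of WT females with males whose deleted copy was of maternal origin. The study took the sequenced mice from a larger cohort and described the sequenced WT mice as the fatter group, so genotype and fat mass cannot be told apart.

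Fat pads hold resident lymphocytes between the adipocytes. T cells carry a receptor that signals through the CD3 chains and the CD247 zeta chain, and the kinases LCK and ZAP70 pass that signal on, while the interleukin-7 receptor supports T cell survival. Regulatory T cells, marked by the transcription factor FOXP3, and type 2 innate lymphoid cells, which need GATA3 and respond to interleukin-33 through its receptor IL1RL1 (ST2), are both known residents of visceral fat. B cells signal through CD79A and CD79B, and NK cells carry the activating receptor NCR1 and release granzymes and perforin.

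Expression was measured by SAGE (serial analysis of gene expression). The enzyme NlaIII cuts cDNA at CATG and the stretch next to the cut nearest the poly(A) end is counted as the tag of the transcript. A transcript therefore gives 1 tag whatever its length. The tags predicted for the genes on which the results turn are given so that the measured stretch of each gene can be seen. Each was read from the GENCODE M21 transcript of GRCm38 (mm10) that carries a RefSeq identifier, 5′ to 3′, with the NlaIII site in capitals and 25 bases shown.
Cd3d: CATGtaagtattaaattagtacacc
Cd3e: CATGaatacaccagccccctctctg
Cd3g: CATGgaatctgggcaacaatgccaa
Lck: CATGtctctgtgtgttctgtcctgg
Il7r: CATGtaaataaatgggctctacagt
Foxp3: CATGtcgctgtgttggggtgactat
Gata3: CATGtcagagacccggccactcaca
Cd79a: CATGtcccaaagcaagggggaacca
Il2rg: CATGgtccttctcttttataggatt
Cd8b1: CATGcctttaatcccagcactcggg

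The genes of the 3 CD3 chains are neighbours on chromosome 9, with Cd3g at chr9:44969572-44980431 on the minus strand, Cd3d at chr9:44981786-44987339 on the plus strand and Cd3e at chr9:44998740-45009627 on the minus strand. The tags of Cd3d and Cd3e lie in the 3′ UTR, 38 and 61 bases from the transcript end. The tag of Cd3g lies in the coding part, 701 bases from the end. Lck is at chr4:129548344-129573641 (minus strand), Il7r at chr15:9505788-9530176 (minus strand) and Gata3 at chr2:9857078-9890034 (minus strand), all with their tag in the 3′ UTR. Gata3 overlaps 4930412O13Rik on the other strand and 9230102O04Rik on its own strand, and Foxp3 (chrX:7573644-7595245, plus strand) overlaps Ppp1r3f and Ccdc22 on the other strand. Il2rg (chrX:101264378-101268255, minus strand) overlaps Gm20489 on its own strand, and its tag lies in the 3′ UTR. Cd79a is at chr7:24897381-24902197 on the plus strand.

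Over the 40 genes, the predicted site lay in the 3′ UTR in 33, in the coding part in 6 (Cd2, Cd3g, Cd5, Gzma, Ltb and Ptpn22) and in the 5′ UTR in 1. That gene was Klrd1, whose only site is 847 bases from the transcript end. A full-length tag fitted before the transcript end in 38 genes. It was cut short in Tbx21 (15 bases) and Skap1 (18 bases). Of the 38 full-length tags, 37 were found in no other gene. The exception was Cd8b1, whose tag shown above occurs in the sense direction in 43 other genes, so its values cannot be assigned to Cd8b1 alone. In 6 genes (Cd22, Cd247, Ctla4, Il1rl1, Klrk1 and Skap1) RefSeq transcripts differ in their tag, and the Cd247 tag also lies within Pou2f1 on the opposite strand. The tag length the authors counted was not given in the sources used here.

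**Figure D1:**
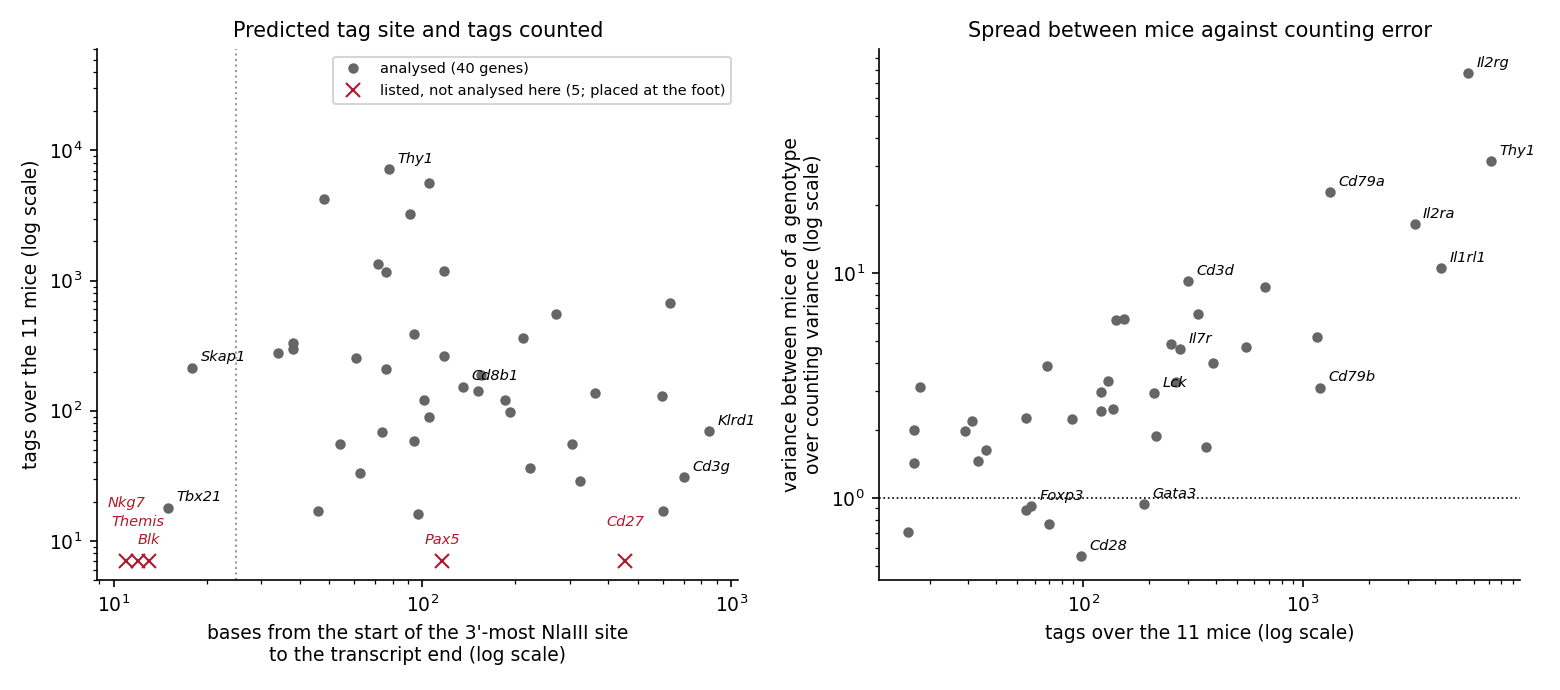
Left, bases from the 3′-most NlaIII site to the transcript end (horizontal, log scale) against tags counted over the 11 mice (vertical, log scale) for the 40 genes, with the dotted line at 25 bases and the 5 genes not analysed here set at the foot with no count. Right, tags over the 11 mice against the variance between mice of a genotype over counting variance (both log scales): Il2rg stands highest at 77.2, and Gata3, Foxp3 and Cd28 lie below the dotted line at 1.

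Most of these genes had few tags. WT libraries held 9659740 to 14825727 tags and pKO libraries 11320342 to 14626803, and the 40 genes took only 0.0178% to 0.0250% of them. A normalized tag is a tag count divided by the size factor of its library, so that 1 tag was worth 0.836 to 1.19 and a count of 0 allows up to 2.51 to 3.56 normalized tags (3 counts, for counting error only). Mean levels reached 50 normalized tags in at least 1 genotype in 9 genes (Cd247, Il2ra, Il1rl1, Gzma, Cd79a, Cd79b, Il2rg, Thy1 and Ptpn22), lay from 10 to under 50 in 17 and were under 10 in both genotypes in 14. The median gene had 147 tags over all 11 mice together, and 8 genes had 0 tags in at least 1 library. Mest itself ranged from 20756 to 27897 normalized tags in the WT and from 793 to 2275 in the pKO group, so the libraries fit their labels.

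**Figure D2:**
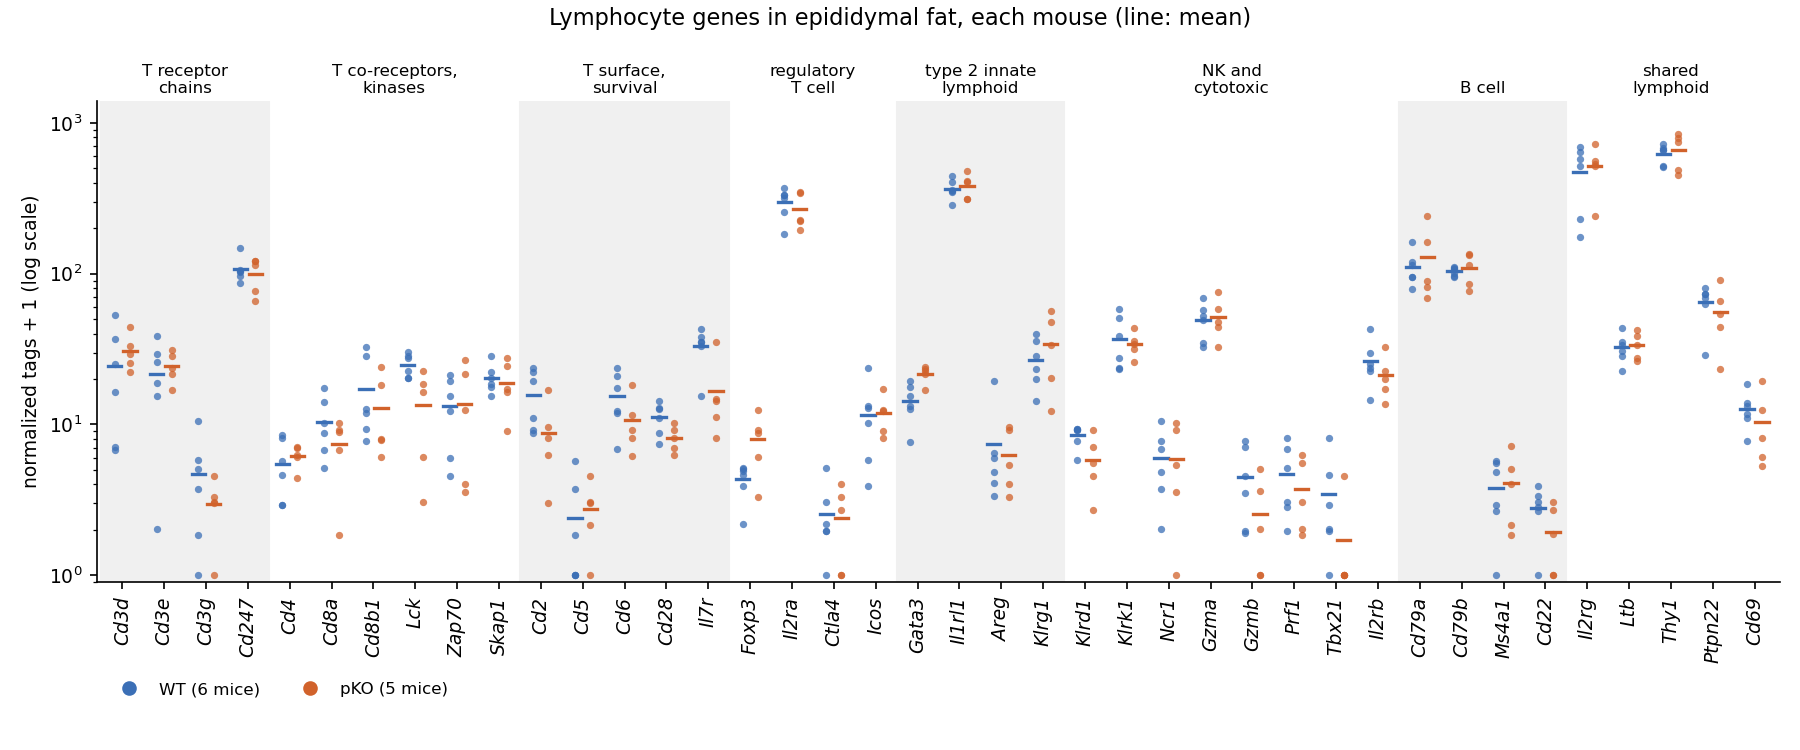
Normalized tags + 1 (vertical, log scale) of the 40 lymphocyte genes in each of 6 WT (blue) and 5 pKO mice (orange), by gene group, with a line at each mean. The ranges of the genotypes overlap in all 40 genes, and most genes lie under 50.

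Between genotypes, 2 of the 40 genes were lower in pKO mice (Il7r and Lck) and 1 was higher (Gata3) at an unadjusted limma p of at most 0.05. The same threshold called 5.35% of all 15453 genes lower and 4.2% higher, 9.55% in either direction, against 7.5% of the lymphocyte genes. Among the 5547 genes with means under 50 in both genotypes the shares were 4.6% lower and 3.05% higher, 7.64% in either direction. Over all 40 lymphocyte genes the share called was thus not above that of all genes. All the calls fell among the 31 lymphocyte genes with means under 50 in both genotypes, 2 lower and 1 higher. That share is above 7.64% but rests on these few genes alone. At an adjusted p of at most 0.1 over all genes, 0 of the 40 genes and 5 of the 15453 (0.0324%) were called by limma. On the tag counts edgeR called 5 and DESeq2 138 of all genes, and both also called 0 of the 40. The study used this adjusted p with other tests and also asked for at least 50 tags in 1 genotype. The smallest adjusted p of a lymphocyte gene was 0.37 (Il7r, limma). The ranges of WT and pKO mice were apart in 0 of the 40 genes, against 1.24% of all genes.

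Without regard to size, 24 of the 40 genes had lower and 16 had higher levels in pKO mice, against 50.4% lower over all genes. The median log2 difference (pKO minus WT, on the log2(value + 1) scale) was -0.15 for the lymphocyte genes and -0.0025 for all genes. The intervals were wide for most genes. The 95% interval of the log2 difference included 0 in 37 genes, and in 29 it included a 2-fold difference in 1 direction or both. It lay within a 2-fold difference in 11 genes, against 67.9% of all genes. The log2(value + 1) scale understates changes of genes with few tags. In bulk tissue, fewer cells of a type and less RNA per cell cannot be told apart.

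**Figure D3:**
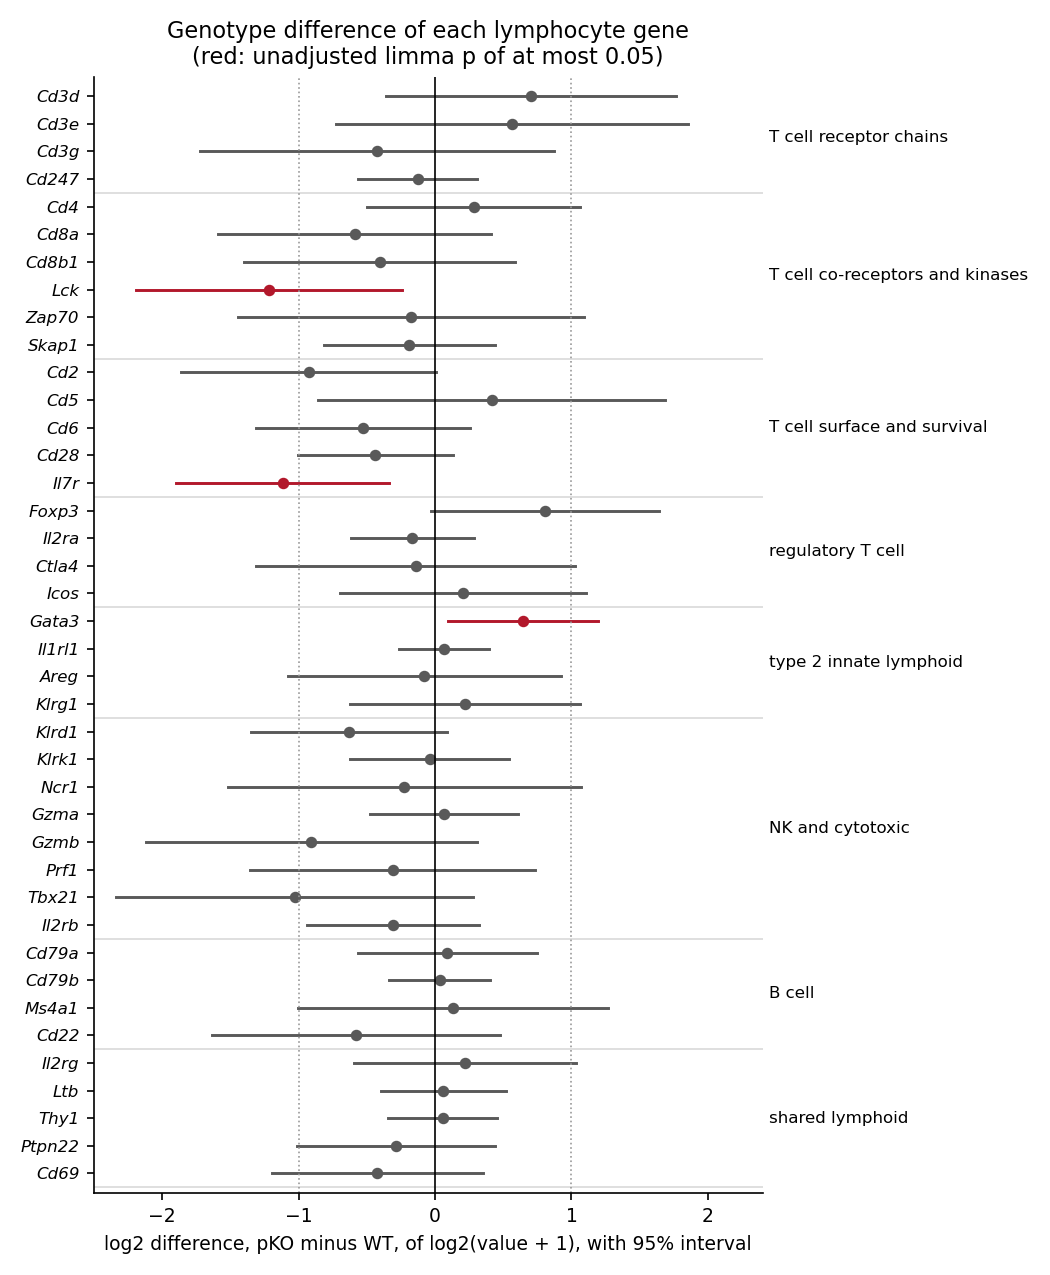
Log2 difference of each lymphocyte gene, pKO minus WT on the log2(value + 1) scale, with its 95% interval from limma and dotted lines at a 2-fold difference. Lck and Il7r lie to the left and Gata3 to the right with intervals that leave out 0 (red), and the other 37 intervals include 0.

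The chains that carry the T cell receptor signal did not differ between genotypes beyond the spread between mice. Cd3d, the delta chain of CD3, had 5.79 to 52.1 normalized tags in WT mice (median 19.9) and 28.3, 32.1, 21.4, 43.2 and 24.6 in the 5 pKO mice. The WT values were spread on both sides of the pKO values, with WT replicates 2 and 5 lowest and WT replicate 1 highest. This gave a log2 difference of 0.71 (SE 0.49; exact permutation test, two-sided, p = 0.26), which was 1.01 without WT replicate 1 (limma, unadjusted p = 0.043) and 0.42 without WT replicate 5. With edgeR on the tag counts it was 0.36 (unadjusted p = 0.46). Cd3e, the epsilon chain, had 1.02 to 37.5 in WT (median 21.4) and 20.6, 16.0, 27.5, 30.0 and 22.5 in pKO mice, a log2 difference of 0.57 (SE 0.60; exact permutation p = 0.63). WT replicate 2 was the lowest and, as for Cd3d, WT replicate 1 the highest mouse, and all pKO mice lay inside the WT range. Without WT replicate 2 the difference was -0.03.

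Cd3g, the gamma chain, was near the limit of counting. It had 0 to 9.50 normalized tags in WT mice (median 3.42) and 0, 2.29, 2.04, 3.53 and 2.05 in pKO mice, from 31 tags in all, and a log2 difference of -0.42 (SE 0.60; exact permutation p = 0.53). Cd247, the zeta chain that T cells share with NK cells, had 85.3 to 146 in WT (median 103) and 75.5, 65.3, 121, 120 and 113 in pKO mice. WT replicate 6 was the highest mouse and pKO replicate 2 the lowest. The log2 difference was -0.13 (SE 0.20; exact permutation p = 0.55), with a 95% interval from -0.56 to 0.31 that lies within a 2-fold difference. The summed normalized tags of the 4 chains averaged 154 ± 40.1 (SD) over the 6 WT mice and 154 ± 33.7 (SD) over the 5 pKO mice. Without Cd247, the most abundant gene of the 4, the sums averaged 47.6 ± 29.3 (SD) and 55.2 ± 12.1 (SD), a ratio of 1.16.

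Among the co-receptors and signalling kinases of T cells, 1 of 6 genes was lower in pKO mice at the unadjusted threshold. This gene was Lck, the kinase that phosphorylates the receptor chains. It had 19.2 to 29.1 normalized tags in WT mice (median 24.0) and 15.5, 21.8, 5.09, 17.7 and 2.05 in pKO mice. All WT mice lay within a narrow band, pKO replicate 2 fell inside it, and pKO replicates 3 and 5 were far below. These same 2 mice had 27.5 and 22.5 normalized tags of Cd3e and 21.4 and 24.6 of Cd3d, inside the wide WT range of both genes. Their values of Il7r (7.12 and 10.2) and Cd2 (2.04 and 7.16) lay below the WT range. Whether these mice held fewer T cells was not tested. Lck averaged 23.8 ± 4.35 (SD) over the 6 WT mice and 12.4 ± 8.45 (SD) over the 5 pKO mice. Its log2 difference was -1.22 (SE 0.45; limma, adjusted p = 0.43; exact permutation p = 0.011), and without pKO replicate 3 it was -1.02 (limma, unadjusted p = 0.052). With each mouse left out it ranged from -1.50 to -0.77, smallest without pKO replicate 5.

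The other 5 genes of this group did not pass the threshold. Cd4, the co-receptor of helper T cells, had 1.93 to 7.53 normalized tags in WT mice and 3.44 to 6.11 in pKO mice, from 55 tags in all. Cd8a, the alpha chain of the co-receptor of cytotoxic T cells, had 4.18 to 16.4 in WT mice and 0.858 to 9.16 in pKO mice. The tag of the beta chain gene Cd8b1, which cannot be assigned to it alone, had 6.80 to 31.7 in WT mice and 5.12 to 22.9 in pKO mice. Zap70, the kinase that binds the phosphorylated chains, was among the more variable genes. It had 3.56 to 20.4 in WT mice and 2.58 to 25.6 in pKO mice, with a 95% interval of the log2 difference from -1.44 to 1.09. Skap1, an adaptor for T cell adhesion, had 14.5 to 27.4 in WT mice and 8.02 to 26.5 in pKO mice.

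Of the 5 T cell surface and survival genes, Il7r was lower in pKO mice at the unadjusted threshold. The interleukin-7 receptor alpha chain that it encodes is carried by naive and memory T cells and by innate lymphoid cells. Il7r had 14.5 to 41.8 normalized tags in WT mice (median 34.4) and 13.7, 34.4, 7.12, 13.2 and 10.2 in pKO mice. In each genotype 1 mouse stood apart, with WT replicate 5 at the pKO level and pKO replicate 2 at the WT level. Il7r averaged 32.3 ± 9.34 (SD) over the 6 WT mice and 15.7 ± 10.8 (SD) over the 5 pKO mice. Its log2 difference was -1.12 (SE 0.36; limma, adjusted p = 0.37; exact permutation p = 0.024). Il7r passed the unadjusted threshold in all 23 fits that tested it, and without pKO replicate 2 the log2 difference was -1.43 with an adjusted p of 0.085 (limma).

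In 3 of the other 4 genes of this group the pKO mean was below the WT mean without passing the test. Cd2, an adhesion receptor of T and NK cells, averaged 14.8 ± 6.89 (SD) in the WT and 7.82 ± 5.21 (SD) in the pKO group, a log2 difference of -0.93 (SE 0.43; limma, unadjusted p = 0.052). Cd2 passed in 4 of 23 fits, among them total-count scaling, and Cd6 in 1. Cd6, which binds an adhesion ligand, had 5.83 to 22.6 in WT mice and 5.15 to 17.2 in pKO mice. The costimulatory receptor gene Cd28 had 6.39 to 13.3 in WT mice and 5.30 to 9.17 in pKO mice, and its spread between mice was no larger than counting error. Cd5, a negative regulator of receptor signalling, had 17 tags in all and 0 tags in 4 libraries.

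The sum of this group showed the same mice apart. Summed normalized tags were at least 46.3 in WT mice (mean 73.1 ± 16.7, SD) and 33.5, 77.9, 27.5, 38.0 and 33.8 in pKO mice (mean 42.1 ± 20.4, SD), a ratio of means of 0.576. All pKO mice except replicate 2 lay below every WT mouse. Il7r was the most abundant gene of the group, and without it the ratio was 0.646. Over the 3 T cell groups together, 11 of 15 genes had lower and 4 had higher levels in pKO mice, with a median log2 difference of -0.40, and the sums had a ratio of 0.840. The Cd8b1 tag, which cannot be assigned to that gene alone, is among the 11, gives the median value and enters the sums.

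**Figure D4:**
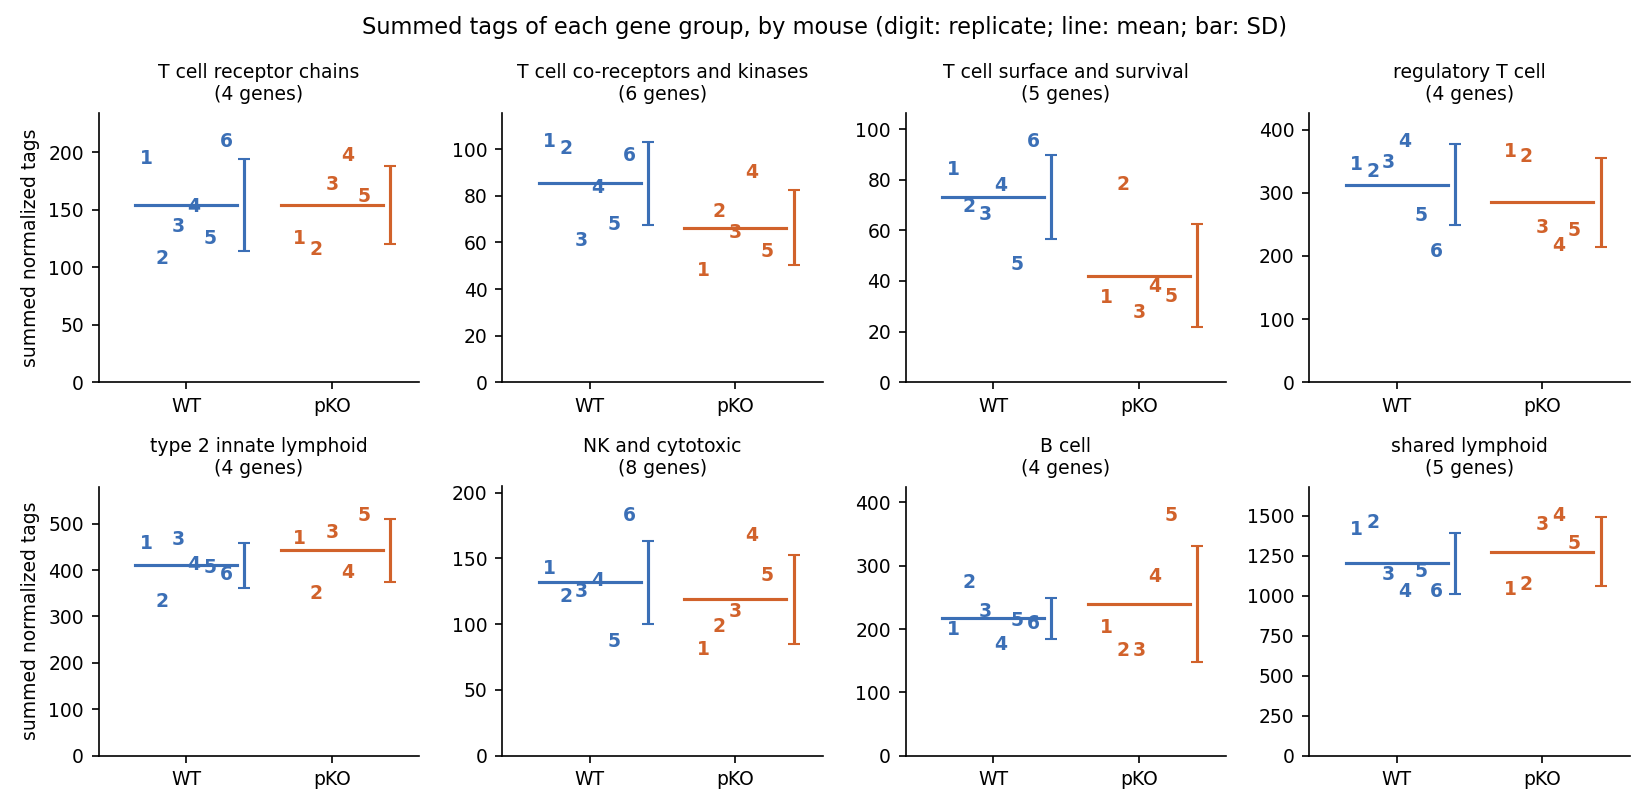
Summed normalized tags of each gene group (vertical, linear from 0) in each mouse, with digits for the replicate, a line at the mean and a bar for the SD, for 6 WT and 5 pKO mice. In the T cell surface and survival panel pKO replicate 2 lies at 77.9 and the other pKO mice at 27.5 to 38.0, while in the B cell panel pKO replicate 5 lies highest at 380.

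None of the 4 regulatory T cell genes passed the threshold. Foxp3, the factor that defines these cells, had 1.19 to 4.18 normalized tags in WT mice (median 3.77) and 7.73, 2.29, 8.14, 11.5 and 5.12 in pKO mice. In 4 of 5 pKO mice it was above every WT mouse, while pKO replicate 2 lay within the WT range. The log2 difference was 0.80 (SE 0.39; limma, adjusted p = 0.53; exact permutation p = 0.058), from 58 tags in all. It was 1.09 without pKO replicate 2 (limma, unadjusted p = 0.0091) and 0.61 without pKO replicate 4 (limma, unadjusted p = 0.16). On the tag counts Foxp3 had an unadjusted p of 0.036 with edgeR and 0.058 with DESeq2, and it passed in 4 of 22 fits.

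Il2ra, the interleukin-2 receptor alpha chain (CD25), took most of the tags of this group. It had 183 to 371 normalized tags in WT mice (median 322) and 340, 345, 223, 194 and 227 in pKO mice. WT replicate 6 was the lowest mouse, 3 pKO mice were below and 2 above the WT median, and the log2 difference was -0.17 (SE 0.21; exact permutation p = 0.46). The costimulatory receptor gene Icos had 2.89 to 22.6 in WT mice and 7.16 to 16.3 in pKO mice. Ctla4, the inhibitory receptor of the same family, had 17 tags in all and 0 tags in 3 libraries. The group sum had a ratio of 0.911 pKO over WT, and of 1.24 without Il2ra. Il2ra averaged 297 normalized tags in WT and 266 in pKO mice, against 20.7 and 23.3 for the T cell receptor chain gene Cd3e. Which cells gave the Il2ra tags was not tested, so the group sum is no measure of regulatory T cells.

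Among the 4 genes of type 2 innate lymphoid cells, Gata3 was higher in pKO mice at the unadjusted threshold. GATA3 is the transcription factor of these cells and of helper T cells of the corresponding type. Gata3 had 6.69 to 18.3 normalized tags in WT mice (median 13.4) and 20.6, 16.0, 22.4, 22.9 and 21.5 in pKO mice. In 4 of 5 pKO mice it was above every WT mouse, and pKO replicate 2 was again the exception. Gata3 averaged 13.3 ± 4.11 (SD) over the 6 WT mice and 20.7 ± 2.75 (SD) over the 5 pKO mice. Its log2 difference was 0.65 (SE 0.26; limma, adjusted p = 0.46; exact permutation p = 0.015). Leaving out WT replicate 3, pKO replicate 3 or pKO replicate 4 brought it to 0.48, 0.62 and 0.61, each with an unadjusted p at or above 0.05 (limma).

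The gene of the interleukin-33 receptor, Il1rl1, did not follow Gata3. Its RefSeq transcripts have 3 different tags, and which of them were counted was not given. Il1rl1 had 282 to 441 normalized tags in WT mice (median 356) and 406, 312, 409, 312 and 477 in pKO mice. The values of both genotypes were interleaved, with WT replicate 2 the lowest and pKO replicate 5 the highest mouse. Il1rl1 had a log2 difference of 0.06 (SE 0.15; exact permutation p = 0.66) with a 95% interval from -0.27 to 0.40. Areg, the growth factor amphiregulin, had 2.37 to 18.5 in WT mice and 2.29 to 8.58 in pKO mice, and Klrg1, an inhibitory receptor also found on NK cells, had 13.4 to 38.6 in WT mice and 11.3 to 55.6 in pKO mice. Regulatory T cells of visceral fat are also known to carry Gata3, Il1rl1, Areg and Klrg1, so this group is not specific to innate cells.

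**Figure D5:**
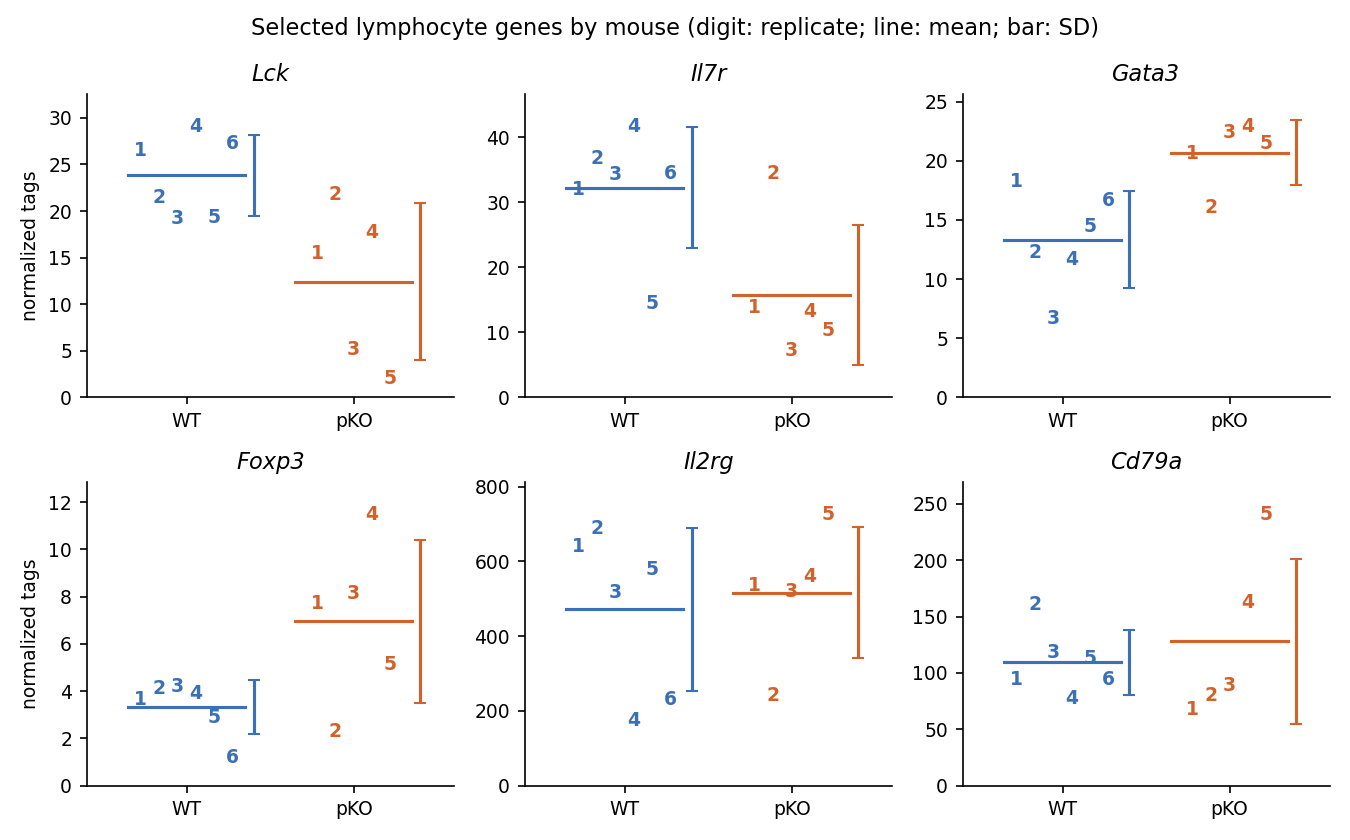
Normalized tags (vertical, linear from 0) of Lck, Il7r, Gata3, Foxp3, Il2rg and Cd79a in each mouse, with digits for the replicate, a line at the mean and a bar for the SD, for 6 WT and 5 pKO mice. pKO replicate 2 lies with the WT mice in Lck, Il7r, Gata3 and Foxp3, and WT replicates 4 and 6 and pKO replicate 2 form the low mice of Il2rg.

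None of the 8 NK and cytotoxic genes passed the threshold, and 7 of the 8 had a lower level in pKO mice. The median log2 difference of the group was -0.31. Ncr1, the activating receptor that marks NK cells, had 1.02 to 9.50 normalized tags in WT mice (median 4.86) and 2.58, 0, 8.14, 4.41 and 9.21 in pKO mice. The pKO and WT ranges overlapped almost wholly, and the log2 difference was -0.22 (SE 0.60; exact permutation p = 0.74), turning to 0.32 without pKO replicate 2. Gzma, granzyme A, was better measured. It had 31.8 to 67.7 in WT mice (median 49.9) and 31.8, 43.5, 46.8, 74.1 and 57.3 in pKO mice, with 1 pKO mouse above the WT range and a log2 difference of 0.06 (SE 0.25; exact permutation p = 0.82).

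The remaining genes of cytotoxic cells had few tags. Gzmb, granzyme B, had 29 tags in all, Prf1, perforin, had 36 and Tbx21, the transcription factor T-bet, had 18. The normalized tags of Tbx21 were 0 in 4 of 5 pKO mice and 1 of 6 WT mice, and its log2 difference was -1.03 (SE 0.61; limma, unadjusted p = 0.11). Klrd1 (CD94) had 4.82 to 8.36 in WT mice and 1.72 to 8.19 in pKO mice, a log2 difference of -0.63 (SE 0.33; limma, unadjusted p = 0.080). Tbx21 and Klrd1 each passed in 2 of 22 fits. Klrk1 (NKG2D) had 22.2 to 57.0 in WT mice and 24.9 to 42.4 in pKO mice, and Il2rb, the beta chain shared by the receptors of interleukins 2 and 15, had 13.5 to 42.0 in WT mice and 12.6 to 31.8 in pKO mice. The group sum averaged 132 ± 31.3 (SD) over the 6 WT mice and 119 ± 34.2 (SD) over the 5 pKO mice.

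None of the 4 B cell genes passed the threshold. Cd79a, the alpha chain of the B cell receptor complex, had 77.7 to 161 normalized tags in WT mice (median 103) and 67.8, 80.2, 88.5, 162 and 240 in pKO mice. Of the pKO mice, replicates 4 and 5 were above the highest WT mouse and the other 3 were below the WT median. The log2 difference was 0.09 (SE 0.31; exact permutation p = 0.81), and it was -0.18 without pKO replicate 5. Cd79b, the beta chain, had 94.6 to 110 in WT mice (median 103) and 131, 84.8, 75.3, 114 and 133 in pKO mice. The WT mice were within a narrow band that all 5 pKO mice fell outside, 3 above and 2 below, and the log2 difference was 0.03 (SE 0.17; exact permutation p = 0.83).

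The defining B cell surface genes were near the counting limit. Ms4a1 (CD20) had 33 tags in all, with 0 to 4.75 normalized tags in WT mice and 0.858 to 6.18 in pKO mice. Cd22, an inhibitory receptor, had 16 tags in all and 0 tags in 3 libraries. The group sum averaged 217 ± 32.7 (SD) over the 6 WT mice and 240 ± 91.7 (SD) over the 5 pKO mice, highest in pKO replicate 5 at 380. The log2 ratio of these means was 0.14, and -0.084 without pKO replicate 5. Of the 8 listed genes of lymph node stroma and follicles 3 were in the tables (Cr2, Fcer2a and Cxcl13) and 0 were called. Cr2 and Fcer2a are also in the wider list of B cell genes, so this list is not independent of B cells. The sum of the 3 was 14.2 to 43.9 normalized tags in WT mice and 8.02 to 53.2 in pKO mice, also highest in pKO replicate 5, with none of the 3 at 0 throughout. Its part in the Cd79a values was not tested.

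None of the 5 genes shared among lymphocyte types passed the threshold. Il2rg, the common gamma chain of several interleukin receptors, had the largest variance between mice of a genotype relative to counting variance, a ratio that grows with abundance. It had 641, 688, 518, 174, 579 and 230 normalized tags in the 6 WT mice and 537, 241, 520, 559 and 726 in the pKO mice. WT replicates 4 and 6 and pKO replicate 2 lay at 174 to 241 and the other 8 mice at 518 to 726, with no mouse between. The variance within a genotype was 77.2 times counting variance, and the log2 difference was 0.22 (SE 0.38; exact permutation p = 0.68). Whether reads of the overlapping Gm20489 enter these values was not tested.

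Thy1, a surface protein of T cells that stromal cells also carry, had 506 to 727 normalized tags in WT mice (median 656) and 447, 750, 836, 795 and 489 in pKO mice. Of the pKO mice, 3 were above and 2 below the whole WT range, and the log2 difference was 0.06 (SE 0.19; exact permutation p = 0.77). Ptpn22, a phosphatase that dampens receptor signalling, had 28.0 to 79.5 in WT mice (median 70.2) and 22.3, 43.5, 52.9, 89.1 and 64.5 in pKO mice. WT replicate 5 and pKO replicate 1 were the lowest mice, and the log2 difference was -0.29 (SE 0.34; exact permutation p = 0.46). It was -0.0075 without pKO replicate 1 and -0.50 without WT replicate 5. Ltb, lymphotoxin beta, had 21.7 to 42.9 in WT mice and 25.2 to 41.5 in pKO mice. The activation marker gene Cd69 had 6.75 to 17.5 in WT mice and 4.29 to 18.5 in pKO mice.

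The spread between mice of a genotype exceeded counting error in most genes. Its variance was above 2 times counting variance in 28 of the 40 genes and under 1.5 times in 8. It was 31.5 times in Thy1, 22.9 in Cd79a, 16.5 in Il2ra, 10.5 in Il1rl1 and 9.25 in Cd3d. It was 0.942 times in Gata3, 0.919 in Foxp3 and 0.554 in Cd28, so that the mice of a genotype differed in these 3 genes by no more than the counting of tags would give.

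Wider lists of lymphocyte genes were read in the same fit. Over all genes the unadjusted threshold called 5.35% lower and 4.2% higher, and the ranges of the genotypes were apart in 1.24%. The lists were not tested as sets. Of the other genes of T cell receptor signalling, 27 of 30 were in the tables and 19 had lower and 8 higher levels in pKO mice. At the unadjusted threshold Nfatc3, a factor activated by calcineurin, was lower (548 ± 56.5 in WT mice and 435 ± 81.8 in pKO mice, SD), and the adaptor gene Lat was higher (110 ± 18.7 and 159 ± 46.3). Of the other B cell and plasma cell genes, 25 of 30 were in the tables, with 4 lower and 1 higher. The lower ones were Syk (399 ± 83.4 and 261 ± 73.0), Sdc1, Blnk and Btk, and the higher one was Ebf1 (660 ± 46.3 and 902 ± 144), in which the ranges of the genotypes were apart. Syk and Btk are kinases that myeloid cells also use, Sdc1 is a proteoglycan of plasma cells and epithelia, and Ebf1 is a factor of B cells and of adipocyte precursors.

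The other lists gave 1 or 2 calls each, to be read against the same shares of all genes. Of the other NK and cytotoxic genes, 21 of 31 were in the tables, with 1 lower, the adaptor gene Sh2d2a (15.0 ± 3.35 in WT mice and 7.80 ± 4.91 in pKO mice, SD), and 0 higher. Of the other regulatory and type 2 genes, 18 of 25 were in the tables, with 2 lower and 0 higher. They were Il17rb, the receptor chain for interleukin-25 (8.80 ± 1.78 and 4.56 ± 1.30), whose ranges were apart, and Batf, a transcription factor of activated lymphocytes (8.05 ± 1.61 and 3.96 ± 3.84). Of the homing and cytokine genes, 23 of 30 were in the tables, with 2 lower, the chemokine genes Cxcl16 (361 ± 44.3 and 287 ± 35.6) and Cxcl12 (a log2 difference of -0.36, SE 0.15), and 0 higher. None of these genes passed an adjusted p of 0.1 in limma.

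Some markers of other cells passed the unadjusted threshold, which called 5.35% of all genes lower and 4.2% higher. Of 15 macrophage markers, 5 were lower in pKO mice (Itgam, Itgax, Trem2, Gpnmb and C1qb) and 0 were higher, with a summed level of 14664 to 21560 normalized tags in WT mice and 11451 to 17524 in pKO mice. Without regard to size, 12 of the 15 had lower and 3 had higher levels (C1qa, Cd163 and Cd9). Emr1, among the 12, had a log2 difference of -0.013. None of the 15 was at 0 in all mice, and pKO replicate 2 had the highest sum of the pKO mice. Of 8 mesothelial markers, 3 were higher in pKO mice (Krt19, Upk1b and Msln), with sums of 1188 to 1625 in WT mice and 1445 to 2903 in pKO mice. In the fibroblast and progenitor list 2 of 9 were higher (Dcn and Dpp4), while without regard to size 4 had lower and 5 higher levels. Of 5 blood markers, 2 were higher (Hba-a1 at 318 ± 137 in WT mice and 525 ± 201 in pKO mice, SD, and Hba-a2), with list sums of 1798 to 2675 and 1651 to 3476. In each of 4 more lists 1 gene was higher, namely S100a9 of 4 neutrophil, Pnpla2 of 8 adipocyte, Kdr of 8 endothelial and Gpx5 of 4 epididymis genes, and 0 passed as lower. Without regard to size, 2 of the neutrophil, 2 of the adipocyte, 2 of the endothelial and 3 of the epididymis genes had lower levels in pKO mice. Of the mast cell and dendritic cell lists, with 7 genes each in the tables, 0 were called. The part of other cell types in the lymphocyte values was not tested.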

How the data were processed

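The authors made SOLiD SAGE libraries from frozen, powdered eWAT, 1 per mouse, mapped the tags with modified SOLiD SAGE software, and listed mm10 and edgeR 3.2.3 in their processing notes. The annotation and any filter on the genes listed in the tables were not given in the sources used here. The deposited signal is a tag count divided by a library size factor, since 100% of values were whole multiples of 1 tag (tolerance 0.01 tags). Here log2(value + 1) was tested, pKO minus WT, with limma 3.58.1 (R 4.3.3, two-sided, by lmFit and by eBayes with a mean-variance trend). The fit took in all 15453 genes, and their p-values were adjusted by the Benjamini-Hochberg method. It was also run on simulated data, but that run is no evidence on genes with means under 50. All calls of lymphocyte genes fell among such genes. For 17 genes a two-sided exact permutation test over all splits of the mice was added (smallest possible p = 0.0022). These were all with a mean of 50 or more in 1 genotype or an unadjusted p up to 0.05, the 4 receptor chains, Foxp3, Cd79a and Ncr1. For other lists at most 4 called genes were given with values. edgeR 4.0.16, DESeq2 1.42.0 and voom were run on the recovered counts. The genes, lists and thresholds were chosen with earlier results of these data known. Tags were read from GENCODE M21. The labels number the mice within each genotype, and no batch is given for them.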

Additional observations from a re-analysis of the deposited data

Results flagged for a closer look

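The values tested for an outlying mouse were each named gene, each summed group and the total tags of the library, by genotype. In these 54 groups of mice, the highest or lowest mouse was tested for a gap to its nearest neighbour that exceeded Dixon's critical value. Chance alone would mark about 1 in 20, or 2.7 of 54, and 5 were marked, 3 in WT and 2 in pKO mice. Cd247 was high in WT replicate 6, at 146 normalized tags against 104 in the nearest mouse. Il7r was low in WT replicate 5, at 14.5 against 32.0, and high in pKO replicate 2, at 34.4 against 13.7. Ptpn22 was low in WT replicate 5, at 28.0 against 62.1. The summed T cell surface and survival genes, which include Il7r, were high in pKO replicate 2, at 77.9 against 38.0.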

How the results depend on the processing

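Il7r passed the unadjusted threshold in all 23 fits that tested it, Lck in 22 and Gata3 in 20, and Foxp3 passed in 4 of 22. No lymphocyte gene passed the adjusted threshold in any fit with all 11 mice. Lower in pKO mice were 2 lymphocyte genes in the fit reported, 3 with total-count scaling (Cd2 joining) or no variance trend (Klrd1 joining), 1 to 3 with each mouse left out, and 0 when testing was limited to means of 50 or more, which leaves 9 of them. The count of genes higher was 1 in the fit reported. It was 2 with a pseudocount of 10, with edgeR or with no variance trend (Foxp3 joining Gata3), 0 with the mean of at least 50, and 0 to 2 with each mouse left out. The count past the adjusted threshold was 0 to 1 with each mouse left out, the 1 being Il7r without pKO replicate 2. Over all genes 827 were lower and 649 higher, against 1016 and 464 with total-count scaling and 624 to 1133 and 453 to 843 with each mouse left out. The count of all genes past the adjusted threshold was 5, against 138 with DESeq2, 11 with no variance trend, 9 with either filter on the mean, 1 with the replicate block and 106 without pKO replicate 2. The log2 ratio of the summed receptor chains ranged from -0.10 to 0.11 with each mouse left out, and that of the B cell sum from -0.084 to 0.25. Without its most abundant gene, the log2 ratio of the regulatory T cell sum was 0.31 and that of the type 2 sum was 0.37. The log2 difference changed sign for Cd79b with total-count scaling (-7.7e-05). With each mouse left out it ranged through 0 for Cd3e (-0.031 to 0.82), Cd247 (-0.21 to 0.0084), Il1rl1 (-0.019 to 0.13), Ncr1 (-0.52 to 0.32), Gzma (-0.084 to 0.21), Cd79a (-0.18 to 0.27), Cd79b (-0.051 to 0.15), Il2rg (-0.032 to 0.47) and Thy1 (-0.040 to 0.19). The causes were not tested. Mice with the same replicate number did not deviate together (mean r -0.024 over 5 pairs, 1 above 0.1), but 5 pairs are too few to show whether the numbers pair the mice. With the replicate block, 2 lymphocyte genes were lower and 1 higher, and 698 and 521 of all genes. Depth limits the 14 genes with means under 10 most, and the p-values measure the spread between these mice only.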
